A study of Mus musculus with 6 samples.

Results

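The subunits of the oxidative phosphorylation machinery were followed in RNA of the mouse cochlea, the organ of hearing, at postnatal day 7. Members were the protein-coding genes whose symbols begin with the stems of the complex I to V subunits (Nduf, Sdh, Uqcr, Cox4 to Cox8 and Atp5) or with mt-, the prefix of genes of the mitochondrial genome. They numbered 97 of the 30462 genes in the deposited table, which holds 18070 protein-coding genes. Of the members, 84 are encoded in the nucleus and 13 in mitochondria. By complex, 45 belong to complex I, 4 to complex II, 9 to complex III, 20 to complex IV and 19 to complex V. The members carry the stem of 1 complex each, and Ndufa4, counted here by its symbol with complex I, is known as a subunit of complex IV. The study compared 3 libraries labelled Neu4 knockout (replicates 2, 4 and 5) with 3 wild-type libraries (replicates 3, 4 and 5). Neu4 encodes a sialidase, an enzyme that trims sialic acid from sugar chains. All 6 libraries came from cochlea, and the labels name no strain, mutant allele or number of animals behind a library. Whether each library came from its own animal is not stated either. The p-values therefore weigh group differences only against the scatter of these libraries, which may differ from that between animals.

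Oxidative phosphorylation takes place in the inner mitochondrial membrane. Complexes I and II pass electrons from NADH and succinate to ubiquinone, complex III hands them to cytochrome c, complex IV transfers them to oxygen, and complex V, the ATP synthase, uses the resulting proton gradient. Most subunits are nuclear genes, while a core of the proton-pumping complexes is encoded in mitochondrial DNA, so that the complexes draw on both genomes. In the cochlea the stria vascularis and the hair cells are known for a high demand for ATP. VDAC channels lie in the outer membrane, where they let ATP, ADP and other metabolites through, and are no part of the respiratory complexes.

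Expression was given as FPKM, fragments scaled to exon length and library size, so that levels can be compared between genes per length. The values imply 15170973 to 17192293 fragments per library. The limma test ran on log2(FPKM + 1) over genes that reached an FPKM of 1 in 3 or more libraries, and a gene was called at a Benjamini-Hochberg adjusted p under 0.05 over all genes tested. Fold changes below are on this scale, as knockout minus wild type, and understate the change of low genes. A second test, voom in limma, used the whole fragments recovered from the FPKM values. Neu4 was at 4, 8 and 6 fragments in the libraries labelled knockout, the same 3 numbers as in wild type, so its RNA did not check the labels. Xist and Ddx3y showed knockout 2 and wild types 3 and 4 to be male and the other libraries female. Among the female libraries Xist was at 24.6 and 28.2 FPKM in knockouts 4 and 5, and lower, at 9.23 FPKM, in wild type 5. Of the hair cell markers, Otof lay between 7.601 and 8.62 FPKM in the knockouts and between 6.88 and 7.54 FPKM in wild type, while Slc26a5, the motor protein of outer hair cells, had 0 to 11 fragments per library. Of the 9 markers 7 were tested, all with log2 fold changes above 0 and 0 called, and 1 of them, Pvalb, is also a muscle marker. Among all 14072 genes tested, 8006 lay above 0 and 6066 below. The 8 markers of the strial marginal cell were above 0 too, and 1, Esrrb, was called, a call lost in 12 of 16 alternatives. The 6 neutrophil markers summed to 145, 143 and 85.2 FPKM in the knockouts, against 53.7, 89.5 and 31.0 FPKM in wild type, with a median log2 fold change of 1.23 over 5 tested genes and 0 called. The groups overlapped. With voom, Myo6 of the hair cell list, Esrrb, Kcne1 and Slc12a2 of the strial list and S100a9 and Ngp of the neutrophil list were called as higher. The part of these cells in the values of the subunits was not tested.

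No subunit passed the test for a difference between the groups, and 3 were too low to be tested. Of the 94 members tested 0 were called, where 0.334% of all 14072 genes tested were called, 0.128% as higher and 0.206% as lower. At an unadjusted p under 0.05 there were 7 members (Cox7a1, Sdhc, Cox5b-ps, mt-Nd3, mt-Co3, mt-Nd4 and Atp5j), whose 95% intervals lay away from 0, against 17.6% of all genes. With voom 0 members were called, against 2.76% of 13796 genes. The smallest adjusted p of a member in the limma test was 0.128 (Cox7a1).

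The members' fold changes lay close to 0. Their median log2 fold change was -0.014, with quartiles of -0.058 and 0.040, against a median of 0.022 and quartiles of -0.062 and 0.111 over all genes tested. It was -0.015 for the nuclear and -0.0011 for the 12 tested mitochondrial members. Over the 7 most abundant mitochondrial genes alone it was -0.043, with 2 values above and 5 below 0. Levels of the other tested mitochondrial members are uncertain, as described below. In absolute value the median was 0.049 for members and 0.088 for all genes. An absolute log2 fold change under 0.1 was found for 71 of the 94 members (75.5%), against 55.3% of all genes. For 69 members (73.4%) the 95% confidence interval of the difference lay within 1.2-fold either way. The same held for 45.6% of all genes, and for 63.1% of genes with a mean of at least 5 FPKM. For these 69 members a difference above 1.2-fold lies outside the interval, while for the other tested members, Cox7a1 and Sdhc among them, it does not. Values of the groups did not overlap for 10 of the 94 members, 4 with higher and 6 with lower values in the knockouts (10.6%), against 24.8% of all genes, 15.2% higher and 9.54% lower.

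**Figure D1:**
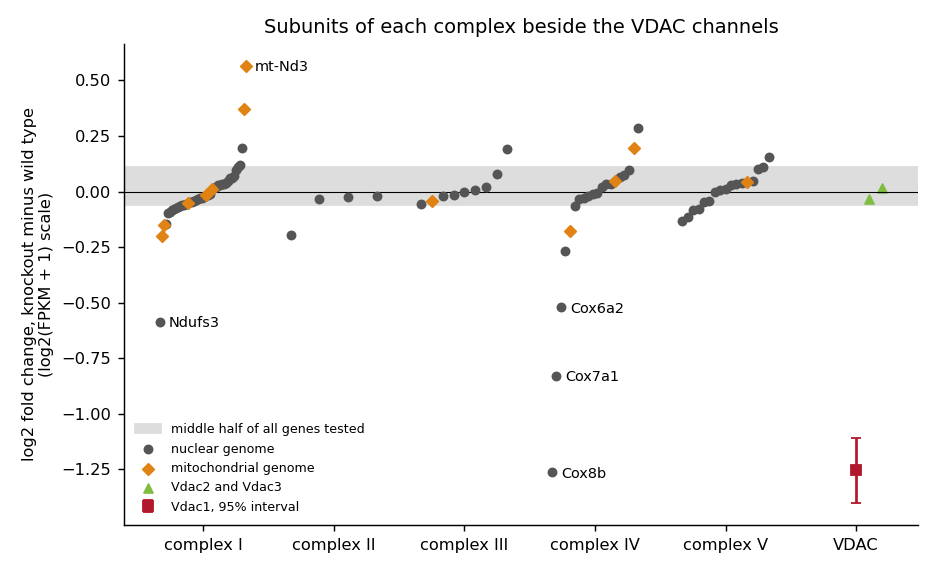
Log2 fold change (y axis, knockout minus wild type on the log2(FPKM + 1) scale) of each tested subunit by complex, with grey circles for nuclear and orange diamonds for mitochondrially encoded genes, beside Vdac1 (red square with its 95% interval) and Vdac2 and Vdac3 (green triangles). The grey band spans the quartiles of all genes tested, -0.062 to 0.111. The 5 labelled subunits have absolute values of at least 0.5, and Vdac1 lies at -1.25.

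Vdac1, an outer membrane channel known as the most abundant VDAC of many tissues, fell in the same libraries. It had 37.8, 37.2 and 38.0 FPKM in the knockouts (replicates 2, 4 and 5, the order kept below), against 85.6, 88.3 and 100.6 FPKM in wild type (replicates 3, 4 and 5). The groups lay far apart, and the knockouts differed little among themselves. Means were 37.7 ± 0.447 FPKM in the knockouts and 91.5 ± 7.99 FPKM in wild type (SD, n = 3 each), a log2 fold change of -1.25 (SE 0.063, adjusted p = 0.000629, limma). Vdac1 (chromosome 11, 52360860 to 52389397, plus strand, GRCm38) is set beside the subunits because its fall was already known. In whole tissue, fewer cells of a type and less RNA per cell cannot be told apart. Its paralogues had similar values in both groups. Vdac2 had 32.4, 31.8 and 30.1 FPKM in the knockouts, against 31.6, 31.8 and 33.2 FPKM in wild type. Vdac3 had 13.3, 13.9 and 15.2 FPKM in the knockouts, against 13.7, 13.9 and 14.3 FPKM in wild type. Both overlapped between the groups. The knockout mean of Vdac1 was 0.412 times that of wild type, and 0 tested subunits had a ratio of means that low. On the log2 scale 1 subunit, Cox8b, had an absolute fold change as large as that of Vdac1, and 61 of all genes tested did. For 86 of the 94 subunits the absolute log2 fold change was at most 0.2.

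**Figure D2:**
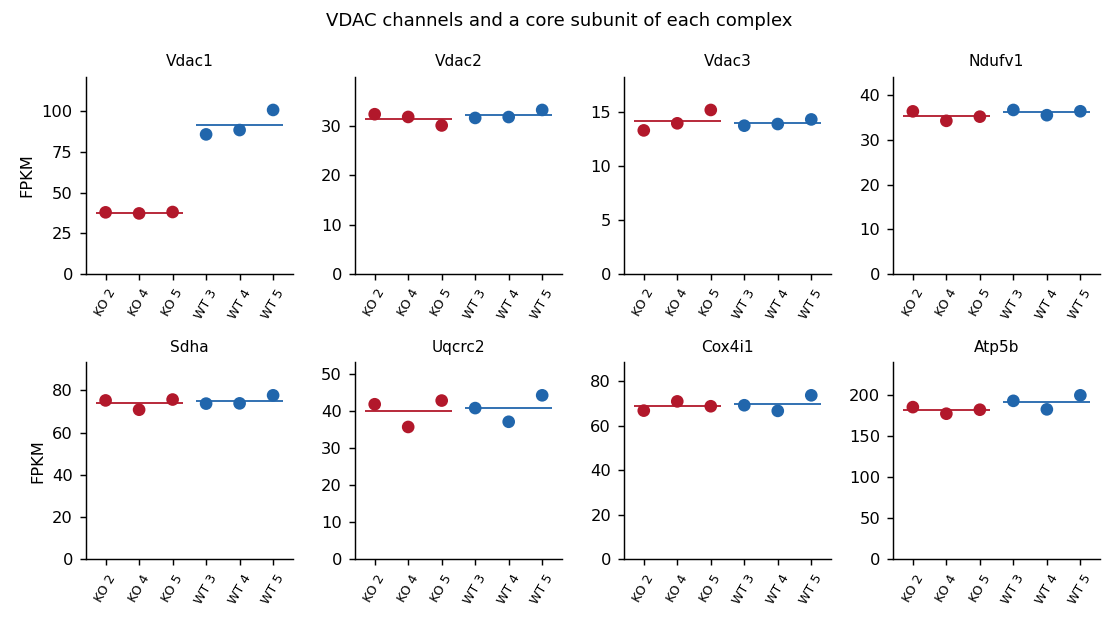
FPKM (y axis, from 0) of the 3 VDAC channels and of 1 core subunit each of complexes I to V in every library (x axis, KO for Neu4 knockout in red and WT for wild type in blue). Points are libraries and lines are group means. Vdac1 separates the groups, at 37.2 to 38.0 FPKM in the knockouts and 85.6 to 100.6 FPKM in wild type, while the 5 subunits lie at similar levels in both.

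Complex I, the NADH dehydrogenase, had 45 members, 38 of them nuclear. The 44 tested had a median log2 fold change of -0.026 and 18 values above 0 against 26 below. Of its catalytic core, Ndufs7, a carrier of an iron-sulphur cluster, had 29.5, 30.1 and 29.4 FPKM in the knockouts, against 31.7, 30.1 and 30.2 FPKM in wild type. The knockouts lay below all wild types only by a narrow margin, with knockout 4 at 30.126 and wild type 4 at 30.132 FPKM. The log2 fold change was -0.05 (SE 0.039, adjusted p = 0.577, limma). Ndufv1, which binds NADH, had 36.3, 34.2 and 35.2 FPKM in the knockouts, against 36.7, 35.5 and 36.4 FPKM in wild type. Ndufv2, Ndufs1 and Ndufs8, which carry further iron-sulphur clusters, had log2 fold changes of -0.05, 0.03 and 0.03, all with overlapping groups.

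Ndufs3, another core subunit, stood out by its spread. It had 4.38, 1.55 and 2.33 FPKM in the knockouts, against 3.59, 7.18 and 3.10 FPKM in wild type, with knockout 2 above 2 of the 3 wild types. Its log2 fold change of -0.58 had a standard error of 0.333 (adjusted p = 0.403, limma) and was -0.28 without wild type 4. Its fragments are uncertain, since the processed pseudogene Gm12251 on chromosome 11 is 98.6% identical to its transcript over 75.7% of the length. Ndufb9, an accessory subunit, had the highest nuclear value of the complex, 0.20, with 5.24, 3.04 and 4.16 FPKM in the knockouts, against 3.00, 3.10 and 4.25 FPKM in wild type. These groups overlapped, and the value was 0.05 without knockout 2. Ndufb2 was below the minimum, with 0.842, 0.808 and 0.902 FPKM in the knockouts, against 0.678, 1.15 and 1.02 FPKM in wild type, and was not tested. The other nuclear members had absolute log2 fold changes of at most 0.14.

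Complex II, the succinate dehydrogenase of the citrate cycle, is built from nuclear genes alone, and its 4 members had log2 fold changes below 0 with a median of -0.028. Sdhc, 1 of the 2 membrane anchors, had the largest. Its values were 28.1, 27.1 and 26.4 FPKM in the knockouts, against 30.8, 30.1 and 32.9 FPKM in wild type, so that every knockout lay below every wild type. The log2 fold change was -0.19 (SE 0.048, adjusted p = 0.131, limma), short of the threshold. The flavoprotein Sdha had 75.2, 70.8 and 75.6 FPKM in the knockouts, against 73.7, 73.8 and 77.6 FPKM in wild type. The iron-sulphur subunit Sdhb and the anchor Sdhd had log2 fold changes of -0.02 and -0.03. The groups overlapped for these 3 genes.

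Complex III, the cytochrome bc1 complex, had the median nearest to 0, at -0.0010 over its 9 members, and 0 of them had groups that did not overlap. Uqcrfs1, the Rieske iron-sulphur protein, had 50.6, 44.6 and 50.1 FPKM in the knockouts, against 50.2, 49.4 and 51.5 FPKM in wild type. Knockout 4 was the lowest for this gene and for the core protein Uqcrc2, which had 42.0, 35.8 and 43.0 FPKM in the knockouts, against 40.9, 37.2 and 44.4 FPKM in wild type. The other core protein, Uqcrc1, had 18.4, 19.4 and 16.9 FPKM in the knockouts, against 11.6, 21.9 and 15.6 FPKM in wild type. Wild type held both its lowest and its highest library, and the log2 fold change of 0.19 had a standard error of 0.194 and was -0.02 without wild type 3. The small subunits Uqcr10, Uqcr11, Uqcrb, Uqcrh and Uqcrq lay between -0.02 and 0.08.

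Complex IV, cytochrome c oxidase, had a median of -0.0084 over 20 members and the widest range, from -1.26 to 0.28. Its general subunits were at like levels in both groups. Cox4i1, the usual form of the subunit through which ATP regulates the enzyme, had 66.7, 70.9 and 68.7 FPKM in the knockouts, against 69.1, 66.6 and 73.6 FPKM in wild type. Cox6a1, the most abundant nuclear member, had 372, 356 and 371 FPKM in the knockouts, against 346, 358 and 370 FPKM in wild type. Groups overlapped in both. Cox5a, Cox5b, Cox6b1, Cox7b and Cox7a2 had log2 fold changes between -0.03 and 0.02. Cox7a2l, known as an assembly factor that joins complexes III and IV into supercomplexes, had a log2 fold change of 0.10, with 98.0, 97.8 and 101 FPKM in the knockouts, against 98.2, 87.9 and 91.7 FPKM in wild type. Cox8a did not overlap, with 161, 150 and 160 FPKM in the knockouts, against 162, 167 and 164 FPKM in wild type, at a log2 fold change of -0.07 (SE 0.044).

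The lowest values in complex IV belonged to isoforms of restricted tissue range, while the highest, 0.28, was that of Cox5b-ps, described below. Cox7a1, Cox8b and Cox6a2 are the forms known from heart, skeletal muscle and, for Cox7a1 and Cox8b, brown fat, and all 3 lie on chromosome 7, which held 8 nuclear members, the most of the 19 chromosomes with any. Cox7a1 had 3.37, 3.64 and 4.81 FPKM in the knockouts, against 8.04, 5.54 and 10.2 FPKM in wild type. Every knockout lay below every wild type, with means of 3.94 ± 0.763 FPKM in the knockouts and 7.92 ± 2.32 FPKM in wild type (SD, n = 3 each). The log2 fold change was -0.83 (SE 0.197, adjusted p = 0.128, limma), resting on 30, 33 and 39 fragments in the knockouts, against 71, 51 and 87 in wild type. Of the summed FPKM of Cox7a1 and the general form Cox7a2, Cox7a1 made up 8.07 ± 1.31% in the knockouts and 14.8 ± 3.13% in wild type. Cox7a2 itself had 45.5, 42.8 and 45.9 FPKM in the knockouts, against 44.3, 43.1 and 47.7 FPKM in wild type.

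Cox8b had 4.17, 0.328 and 6.23 FPKM in the knockouts, against 11.9, 6.46 and 6.08 FPKM in wild type. Knockout 4 held 2 fragments, wild type 3 was the highest, and the groups overlapped. The log2 fold change was -1.26 (SE 0.595, adjusted p = 0.324, limma), and -0.53 without knockout 4. Cox6a2 was likewise lowest in knockout 4, with 5.65, 0.695 and 4.56 FPKM in the knockouts, against 3.83, 2.82 and 9.02 FPKM in wild type. Its log2 fold change of -0.52 became 0.09 without that library. Isoforms from other settings differed less. Cox4i2, a form known from lung and from oxygen-sensing cells, had 7.46, 11.2 and 8.70 FPKM in the knockouts, against 11.5, 12.0 and 9.77 FPKM in wild type, a log2 fold change of -0.27 (SE 0.138) with overlapping groups, or -0.15 without knockout 2. Cox6b2, known from testis, and Ndufa4l2, known as a target of hypoxia-inducible factors, had log2 fold changes of 0.03 and -0.01.

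Markers of skeletal muscle and fat, the tissues in which those isoforms are known, also differed between these libraries. The 19 skeletal muscle markers summed to 332, 93.5 and 367 FPKM in the knockouts, against 391, 225 and 836 FPKM in wild type. Of the 18 tested, 16 had values below 0 with a median of -0.86, 0 were called, and 0 were at 0 in every library of a group. Knockout 4 was the lowest and wild type 5 the highest, as for Cox6a2. The 6 brown adipocyte markers summed to 28.9, 18.7 and 33.9 FPKM in the knockouts, against 43.8, 36.0 and 35.3 FPKM in wild type, without overlap. Of the 4 tested, 2 were above and 2 below 0. Elovl3, at 0 in all knockouts, was too low to be tested. Ucp1, the uncoupling protein that defines brown fat, had 5.61, 0.0722 and 11.5 FPKM in the knockouts, against 19.1, 14.9 and 16.6 FPKM in wild type. Knockout 4 was again the lowest. In wild type Ucp1 was a large part of the brown adipocyte sum. Ppargc1a of the same list went the other way and was higher in every knockout. It had 1.46, 1.17 and 1.56 FPKM in the knockouts, against 0.974, 0.962 and 1.08 FPKM in wild type. Its log2 fold change was 0.25 (adjusted p = 0.256, limma). The 6 white adipocyte markers summed to 12.1, 4.51 and 12.3 FPKM in the knockouts, against 33.2, 21.4 and 15.4 FPKM in wild type, with 5 of 5 tested genes below 0. With voom, Dio2 of the brown list was called as higher and Adipoq of the white list as lower. The part of these tissues in the values of Cox7a1, Cox8b and Cox6a2 was not tested.

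**Figure D3:**
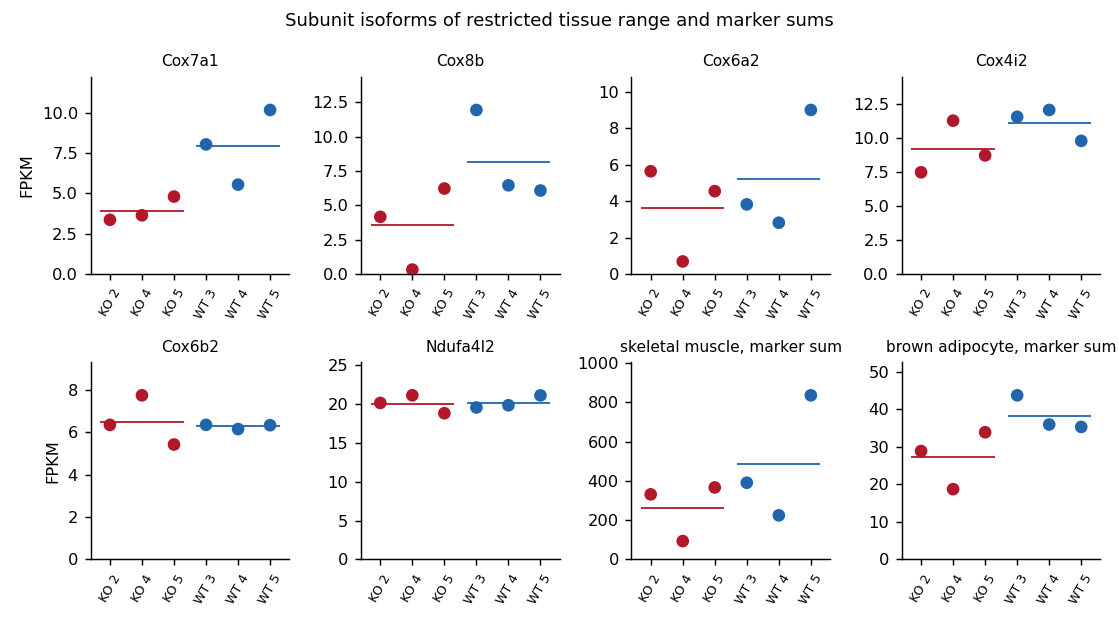
FPKM (y axis, from 0) of 6 isoform genes and summed FPKM of the skeletal muscle and brown adipocyte markers in every library (x axis, KO for Neu4 knockout in red and WT for wild type in blue). Points are libraries and lines are group means. Knockout 4 is the lowest library for Cox8b, Cox6a2 and both marker sums, and Cox7a1 separates the groups at 3.37 to 4.81 FPKM in the knockouts and 5.54 to 10.2 FPKM in wild type.

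The promoters of the nuclear subunits were searched for short motifs in the 250 bases before the start given by RefSeq (GRCm38.p6), where 67 of the 84 nuclear members could be matched by symbol. Each motif was searched on both strands. The NRF1 motif, searched as GCGC, any 2 bases and GCGC, and named after a factor known to drive many respiratory genes, was held by 13 of the 67 promoters (19.4%), against 5.09% of all 27025 promoters. The CCAAT box, searched as CCAAT, was in 29 (43.3%), against 34.5% of all. The ERR motif AAGGTCA was in 5 (7.46%), against 4.05% of all, and the ETS motif CCGGAAGT in 3 (4.48%), against 2.93%. TATAAA was in 6 (8.96%), against 12.97% of all, and the E-box CAGCTG in 6 (8.96%), against 12.8%. The median GC content was 56.4% for the members, against 52% for all promoters, and the part of base composition in these shares was not tested. The shares describe letters in a window and name no bound factor.

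Promoters are shown for Cox7a1, the tissue isoform whose groups did not overlap, with its partner Cox7a2, for Cox6a1 as the most abundant nuclear subunit and a holder of the NRF1 motif, and for Vdac1. The 250 bases run 5′ to 3′ on the gene's strand and end at the base before the RefSeq start, and capitals mark motif matches on either strand. The Cox7a1 window is chr7:30183921-30184170 (plus strand) and holds 2 CCAAT boxes, printed as ATTGG on this strand. The Cox7a2 window is chr9:79759854-79760103 (minus strand) and holds none of the 6 motifs. The Cox6a1 window is chr5:115348959-115349208 (minus strand), with 2 NRF1 motifs that begin 162 and 117 bases before the start and a CCAAT box 74 bases before it. The Vdac1 window is chr11:52360601-52360850 (plus strand) and holds none.
Cox7a1: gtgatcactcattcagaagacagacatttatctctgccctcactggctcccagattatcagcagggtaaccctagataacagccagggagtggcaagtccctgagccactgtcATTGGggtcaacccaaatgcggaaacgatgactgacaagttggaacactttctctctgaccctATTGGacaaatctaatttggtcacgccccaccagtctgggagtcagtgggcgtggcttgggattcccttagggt
Cox7a2: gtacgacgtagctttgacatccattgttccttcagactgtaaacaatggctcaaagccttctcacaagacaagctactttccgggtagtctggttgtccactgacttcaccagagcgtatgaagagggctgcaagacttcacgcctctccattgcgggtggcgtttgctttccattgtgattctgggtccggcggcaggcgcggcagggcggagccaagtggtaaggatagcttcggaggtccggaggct
Cox6a1: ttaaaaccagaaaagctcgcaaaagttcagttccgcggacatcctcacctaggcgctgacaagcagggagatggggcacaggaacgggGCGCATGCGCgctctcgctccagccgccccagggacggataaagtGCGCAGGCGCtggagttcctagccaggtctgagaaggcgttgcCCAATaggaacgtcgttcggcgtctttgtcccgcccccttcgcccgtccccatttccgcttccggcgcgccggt
Vdac1: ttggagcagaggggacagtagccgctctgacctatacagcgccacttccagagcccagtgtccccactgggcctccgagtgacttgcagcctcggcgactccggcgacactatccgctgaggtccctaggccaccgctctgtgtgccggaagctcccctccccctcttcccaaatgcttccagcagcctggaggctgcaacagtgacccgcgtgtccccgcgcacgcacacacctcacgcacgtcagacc
These 4 windows differ in base composition, with GC contents of 51.2% for Cox7a1, 54.8% for Cox7a2, 62.8% for Cox6a1 and 65.2% for Vdac1.

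Complex V, the ATP synthase, had a median of 0.012 over 17 tested members, 10 above and 7 below 0. In the catalytic F1 head, Atp5b (beta) had 185, 177 and 182 FPKM in the knockouts, against 193, 183 and 200 FPKM in wild type. The groups overlapped, and the log2 fold change was -0.08 (SE 0.047). Atp5a1 (alpha) varied more, with 22.1, 26.4 and 19.5 FPKM in the knockouts, against 23.8, 21.1 and 30.3 FPKM in wild type. Atp5c1, the gamma subunit that turns within the head, had a log2 fold change of -0.00 (95% interval -0.13 to 0.13). The proton-carrying ring is made from 3 genes that encode the same mature protein, and their shares of the summed FPKM were alike. Atp5g1 gave 11.1 ± 0.568% in the knockouts and 10.6 ± 0.296% in wild type, Atp5g2 gave 33.9 ± 0.433% in the knockouts and 34.7 ± 1.05% in wild type, and Atp5g3 the rest (SD, n = 3 each).

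In the stalk and membrane part, Atp5j, the coupling factor F6, did not overlap. It had 29.1, 26.9 and 27.1 FPKM in the knockouts, against 26.2, 25.3 and 25.2 FPKM in wild type, at a log2 fold change of 0.11 (SE 0.046, adjusted p = 0.280, limma). Gabpa, on the opposite strand, shares 12.7% of the exon bases of Atp5j and was higher in every knockout too (log2 fold change 0.22). The strand setting is not known, and the part of Gabpa in the value of Atp5j was not tested. Atp5l, subunit g, was also higher in every knockout, with 1.89, 2.25 and 2.22 FPKM in the knockouts, against 1.83, 1.83 and 1.72 FPKM in wild type. Its level is uncertain, since 9 other genes have transcripts at least 95% identical over at least 50% of its length. Atp5o, the subunit that ties the head to the stalk, was below the minimum and not tested. It had 0.974, 0.869 and 0.869 FPKM in the knockouts, against 0.768, 0.708 and 0.761 FPKM in wild type, on 26 to 32 fragments in the knockouts and 24 to 25 in wild type. Genes on either strand share 47.9% of its exon bases, so its fragments cannot be told apart from theirs without a known strand setting.

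The 13 subunits of the mitochondrial genome included the most abundant members by far, and 0 of the 12 tested were called. Mitochondrial genes are transcribed as long precursors from which the single messengers are cut, so neighbours on a strand share a transcript. The highest 7 genes had means from 1081 to 5839 FPKM over the 6 libraries. The highest was mt-Co1, the catalytic core of complex IV, with 5802, 5791 and 6210 FPKM in the knockouts, against 5645, 5547 and 6038 FPKM in wild type. Next came mt-Cytb, cytochrome b of complex III, with 3915, 3743 and 4056 FPKM in the knockouts, against 3836, 3891 and 4354 FPKM in wild type. Both overlapped between the groups.

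Among the complex I genes of this genome, mt-Nd1 had 2741, 2843 and 2997 FPKM in the knockouts, against 2694, 2821 and 3166 FPKM in wild type. The membrane subunits mt-Nd2 and mt-Nd5 had log2 fold changes of -0.05 and 0.01. Among the 7 most abundant genes mt-Nd4 alone did not overlap, with 1085, 1088 and 1004 FPKM in the knockouts, against 1177, 1144 and 1330 FPKM in wild type. Its log2 fold change was -0.20 (SE 0.075, adjusted p = 0.242, limma). Wild type 5 was the highest library for 6 of these 7 genes, mt-Co1 being the exception. Of the 13 genes only mt-Nd6 lies on the other strand, with 978, 949 and 1146 FPKM in the knockouts, against 1034, 1123 and 1258 FPKM in wild type, and without a known strand setting its fragments cannot be told apart from those of transcripts crossing it in the opposite sense.

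The other 6 mitochondrial genes were listed far lower, with means between 0.8 and 46.6 FPKM. For 5 of these an annotated nuclear gene in 1 block of chromosome 1 (24611535 to 24615565, GRCm38) is a copy. Each copy is at least 99.7% identical over at least 98.99% of the transcript. Only annotated transcripts were searched, so copies without an annotated gene would be missed. The copy of mt-Nd4, in the same block, covers 63.6% of its transcript, and the sources used here do not say how fragments matching both places were counted. Levels of these genes and of their copies are therefore uncertain. The largest member value above 0 was that of mt-Nd3, a small membrane subunit of complex I, with 3.79, 4.92 and 5.87 FPKM in the knockouts, against 1.91, 3.68 and 3.42 FPKM in wild type. Every knockout lay above every wild type, on 22, 29 and 31 fragments in the knockouts, against 11, 22 and 19 in wild type, with a log2 fold change of 0.57 (SE 0.203, adjusted p = 0.221, limma), or 0.35 without wild type 3. Its copy Gm28438 (chromosome 1, 24612775 to 24613119) had a fold change of the opposite sign, with 6.44, 4.28 and 6.50 FPKM in the knockouts, against 16.9, 10.6 and 14.1 FPKM in wild type, at a log2 fold change of -1.14 (SE 0.188, adjusted p = 0.0735, limma). The copy passed the threshold in 3 alternatives, with adjusted p = 0.037 in voom, 0.0351 with an FPKM minimum of 5 and 0.0352 with a replicate block (limma). The gene and its copy together had 10.2, 9.20 and 12.4 FPKM in the knockouts, against 18.8, 14.3 and 17.6 FPKM in wild type. The gene made up 37.1%, 53.5% and 47.5% of this sum in the knockouts, against 10.2%, 25.7% and 19.5% in wild type.

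In the other 4 pairs the gene and its copy had fold changes of the same sign. For mt-Co3, with 17.0, 15.98 and 19.0 FPKM in the knockouts, against 20.01, 18.9 and 20.2 FPKM in wild type, the gene had a log2 fold change of -0.18 and its copy Gm28437 one of -0.44. For mt-Co2, with 43.9, 55.5 and 50.1 FPKM in the knockouts, against 38.3, 47.6 and 44.1 FPKM in wild type, the gene had 0.20 and its copy Gm28661 0.19. For mt-Atp6, a membrane subunit of the ATP synthase, the gene had 0.04 and its copy Gm10925 0.34. In size, gene and copy were close for mt-Co2 and apart for mt-Atp6. mt-Nd4l had a log2 fold change of 0.37 on 12 to 36 fragments per library, or 0.11 without wild type 3, and its copy Gm10222 one of 0.34. mt-Atp8 had 3, 1 and 3 fragments in the knockouts, against 0, 3 and 6 in wild type, and was not tested. No annotated transcript outside its locus matched it, but a copy without an annotated gene was not searched for, so its level is uncertain too.

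**Figure D4:**
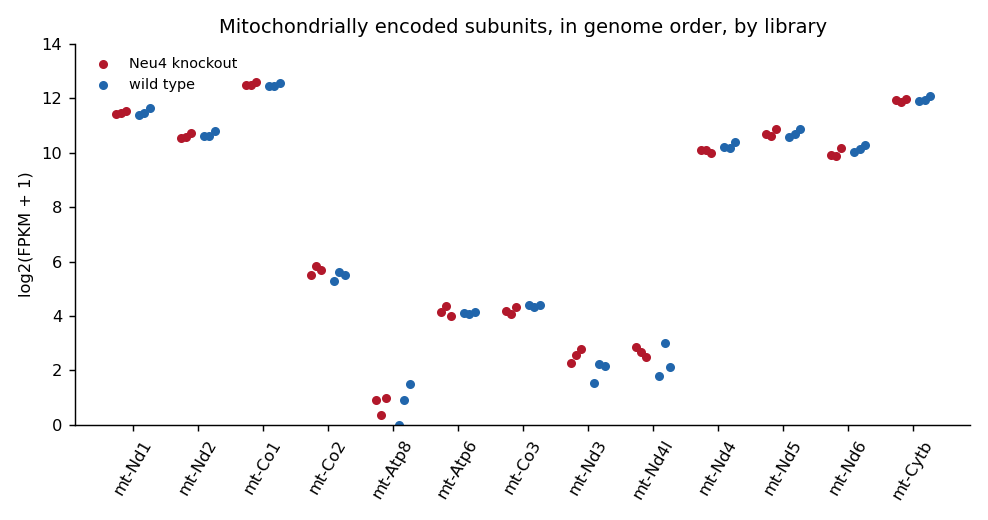
Level (y axis, log2(FPKM + 1)) of the 13 mitochondrially encoded subunits in the order of the genome (x axis), with Neu4 knockout libraries in red and wild type in blue, each point a library, in the order of replicates 2, 4 and 5 of the knockout and 3, 4 and 5 of wild type. The 7 abundant genes lie near or above 1000 FPKM and 6 far below, and within each gene the 2 groups lie close together compared with the differences between genes.

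The balance between the 2 genomes was alike in both groups. The nuclear members summed to 3497 ± 82.0 FPKM in the knockouts and 3528 ± 133 FPKM in wild type, and the mitochondrial members to 18145 ± 788 FPKM in the knockouts and 18418 ± 1266 FPKM in wild type (SD, n = 3 each). The ratio of the mitochondrial to the nuclear sum was 4.998, 5.17 and 5.39 in the knockouts, against 5.08, 5.17 and 5.40 in wild type. These ratios covered the same range in both groups. Nuclear members took 0.557% to 0.604% of fragments and mitochondrial members 2.23% to 2.51% across the 6 libraries. The mitochondrial sum and share rest almost wholly on the 7 most abundant genes. The other mitochondrial genes had means of only 0.8 to 46.6 FPKM, and those with near-identical nuclear copies have uncertain levels. The balance thus describes these 7 genes against the nuclear members.

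Single libraries stood apart for many subunits at once. Wild type 5 was the highest of the 6 libraries for 41 of 82 nuclear members and for 7 of 12 mitochondrial members, against 20.1% of all genes tested. Knockout 4 was the lowest for 24 of 82 nuclear members (29.3%), against 14.9% of all genes. The median deviation of the nuclear members from their 6-library mean was 0.02, -0.04 and 0.02 on the log2 scale in the 3 knockouts, against -0.02, -0.03 and 0.08 in the 3 wild types. That of the mitochondrial members was -0.04, -0.04 and 0.07 in the knockouts, against -0.05, -0.03 and 0.13 in wild type. Wild type 5 was also the library with the highest sum of skeletal muscle markers and knockout 4 the one with the lowest, and the part of muscle in these deviations was not tested. Without wild type 5 the median log2 fold change was 0.02 for nuclear and 0.06 for mitochondrial members, and 0 members were called.

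**Figure D5:**
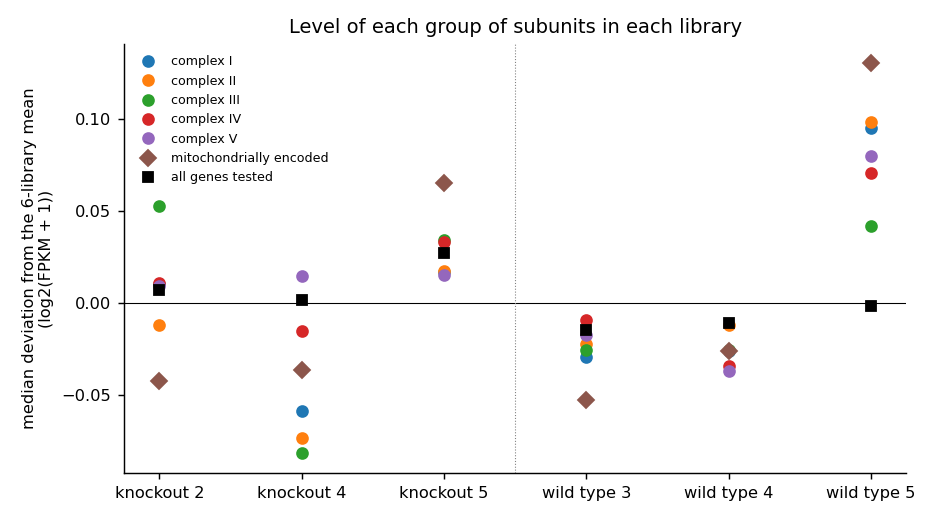
Median deviation from the 6-library mean (y axis, log2(FPKM + 1)) of the tested subunits of each complex (circles), of the mitochondrially encoded subunits (diamonds) and of all genes tested (squares) in each library (x axis, the 3 knockouts left of the dotted line and the 3 wild types right of it). Wild type 5 lies above the other libraries for each group of subunits except complex III, where knockout 2 is higher, while all genes tested stay near 0 in every library.

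Genes that build and feed the complexes were examined as lists beside the subunits. Of 50 assembly factors and partners, such as the cytochrome c1 gene Cyc1, 49 were in the table and 45 tested, 0 were called, and the median log2 fold change was -0.0080 with 19 values above and 26 below 0. Among 17 genes of mitochondrial DNA upkeep and biogenesis 15 were tested and 0 called, with a median of 0.00057, 8 above and 7 below 0. Of 77 mitochondrial ribosomal proteins, which translate the 13 mitochondrial subunits, 75 were tested, 0 called, 37 were above and 38 below 0, and the median was -0.0073. None of these 3 medians lay away from the median of all genes by more than 0.03. The 15 genes of membrane transport, the list that holds the VDAC channels, had 1 call, Vdac1.

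Values of the citrate cycle lay lower. Of its 14 genes 0 were called and 12 were below 0, where 6066 of all 14072 genes tested were. The median of the 14 was -0.084, and their summed FPKM was 470, 466 and 472 in the knockouts, against 508, 484 and 521 in wild type. The groups of sums did not overlap. Idh2, the mitochondrial isocitrate dehydrogenase that makes NADPH, had 61.3, 60.2 and 61.0 FPKM in the knockouts, against 69.7, 65.2 and 72.5 FPKM in wild type, at a log2 fold change of -0.18 (SE 0.047, adjusted p = 0.144, limma). Of 19 genes of glycolysis and hypoxia 0 were called and 15 were below 0, with a median of -0.047. Pdk1, a kinase that restrains entry of pyruvate into the citrate cycle, was the exception with the smallest adjusted p, at 11.1, 11.7 and 12.3 FPKM in the knockouts, against 8.97, 9.003 and 9.21 FPKM in wild type (log2 fold change 0.33, SE 0.051, adjusted p = 0.0672, limma). It passed the threshold with voom (adjusted p = 0.0135) and with an FPKM minimum of 5 (adjusted p = 0.0351, limma).

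Copies in the nuclear genome limited some further members. Of the 97, 16 had another gene at least 95% identical over at least 50% of the transcript, 8 nuclear and 8 mitochondrial. Cox5b-ps, an intronless copy of Cox5b that is annotated as protein coding, had the highest value of the nuclear members, 0.28 (SE 0.076, adjusted p = 0.148, limma). It had 24.6, 27.1 and 27.0 FPKM in the knockouts, against 23.0, 22.2 and 19.1 FPKM in wild type, without overlap. It is 99.2% identical to Cox5b over its whole length. Cox5b, with 65.2, 63.6 and 66.2 FPKM in the knockouts, against 59.96, 62.7 and 70.0 FPKM in wild type, overlapped between the groups.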

How the data were processed

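RNA of 6 cochlea libraries was measured, 3 labelled Neu4 knockout and 3 wild type, made with the VAHTS Universal V6 kit per the labels' protocols. The authors deposited 1 table of FPKM values with gene symbols, biotypes and positions, on build GRCm38 per the submitters' processing notes. No aligner, counting tool or strand setting is given in the sources used here. FPKM times exon length (GENCODE M21) gave whole fragments, within 0.01 fragment plus a relative 1e-06, for 98.3% of values above 0 and for all 97 members, which set the depth of 15170973 to 17192293 fragments per library. No library pair held identical values.

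Members were found by symbol and biotype. The test was limma (lmFit, then eBayes with its trend option) on log2(FPKM + 1), two-sided, over genes that reached an FPKM of 1 in 3 or more libraries. Adjustment was by Benjamini-Hochberg over all these genes, with a threshold of 0.05. The script was tested on simulated data. Alternatives were a pseudocount of 0.1, other filters, 3 other scalings, no trend, sex as a covariate, a replicate block, voom on the recovered fragments and leaving out each library. Member transcripts were compared with those of other genes by blastn, keeping matches of at least 90% identity. Copies among annotated genes were counted at 95% identity over 50% of the transcript, and the genome itself was not searched.

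Members and lists were chosen with earlier results of these data known. Named by rule were the VDAC channels, any called member, the mitochondrially encoded genes, core subunits, tissue isoforms with their partners and the ring genes. By rule too, but picked by value, were the largest rise and fall of each complex and the members with the lowest adjusted p. Cox5b-ps and Atp5l were named in this way. Ndufb9, Ndufb2, the small subunits of complex III, Cox7a2l, Atp5j, Gabpa, Atp5o, the chromosome 1 copies, Idh2, Pdk1, Cyc1 and marker genes were named after their values were seen. Promoters were read from RefSeq by symbol. One item is not reported here. The software was blastn 2.17.0, limma 3.58.1 in R 4.3.3, and pandas 2.3.3, numpy 2.4.6 and matplotlib 3.10.9 in Python 3.11.15.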

Additional observations from a re-analysis of the deposited data

How the results depend on the processing

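In all 16 alternatives 0 members were called and Vdac1 remained called, with log2 fold changes from -1.18 (without wild type 5) to -1.30 (replicate block). The number of genes called among all tested was 47 and moved more. It was 19 without a filter on low values, 103 with an FPKM of at least 5, 19 without a trend, 24 with sex as a covariate, 22 with a replicate block and 381 with voom. Leaving out 1 library gave 12 (without wild type 3 or 4) to 105 (without knockout 5), with 15 without knockout 2, 16 without knockout 4 and 21 without wild type 5. The median log2 fold change ranged from -0.045 to 0.018 for nuclear and from -0.059 to 0.057 for mitochondrial members. Of the 51 other genes named by rule 0 passed the threshold in any alternative, while Gm28438 and Pdk1, named outside it, passed in 3 and 2. Cox8b was at -1.87 with voom, and mt-Nd3 at 0.35 without wild type 3.

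Only the numbers 4 and 5 occur in both groups. The deviations of those pairs correlated at 0.141 and 0.150. All other pairs of a knockout and a wild type were lower, from -0.125 to 0.110. The main test did not pair the libraries, and whether a shared number marks a pair is not known. With the replicate block, in which knockout 2 and wild type 3 have no partner, 0 members were called and Vdac1 kept its call (adjusted p = 0.025). Few fragments limit the precision of some values: Cox7a1 rests on 30 to 87 per library, Cox8b on 2 to 71 and mt-Nd3 on 11 to 31.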
